A study of Mus musculus with 18 samples.

Results

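Toll-like receptors, the germline-encoded sensors of microbial molecules on macrophages and other immune cells, were followed across sorted immune cells of atherosclerotic arteries. The members were the 10 genes of the count table named Tlr1, Tlr2, Tlr3, Tlr4, Tlr5, Tlr6, Tlr7, Tlr8, Tlr9 and Tlr13, out of 23337 genes in the table, and they were chosen by name and not by their values. All 10 were found, and all 10 had enough counts to be among the 17143 genes tested. They were split by the place where the protein works into 5 cell-surface receptors (Tlr1, Tlr2, Tlr4, Tlr5 and Tlr6) and 5 endosomal receptors (Tlr3, Tlr7, Tlr8, Tlr9 and Tlr13).

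RNA of 18 libraries was sequenced from live CD45+ cells. The cells came from digested aortas and carotids of mice of both sexes. Every group shared the genotype Apoe-/- Cx3cr1GFP Cd11cYFP on C57BL/6, an age of 7 months and 5 months of Western diet, so the controls carried the Apoe deletion and the diet too. The cells were sorted by their reporters into YFP cells (GFP-YFP+, n = 5), DP cells (GFP+YFP+, n = 4), GFP cells (GFP+YFP-, n = 6) and DN cells (GFP-YFP-, n = 3). GFP reports the fractalkine receptor gene Cx3cr1, which is active in monocytes and many macrophages. YFP reports Cd11c, the integrin subunit that the gene Itgax encodes in dendritic cells and in many tissue macrophages. A reporter marks the activity of a promoter and not a cell type, and the DN gate could hold any other CD45+ cell. The labels do not say whether 1 or both copies of Cx3cr1 carried GFP, nor whether replicates came from separate mice, so p-values measure the spread between these libraries, which may be technical.

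Cell-surface Toll-like receptors bind bacterial lipoproteins, lipopolysaccharide and flagellin outside the cell, and the endosomal ones bind RNA or DNA that was taken up. The endosomal receptors need the chaperone Unc93b1 to reach their compartment and are cleaved there by cathepsins. Both kinds signal through the adaptor Myd88, except Tlr3, which uses Ticam1, and Tlr4, which uses both, and they lead to NF-κB and interferon regulatory factors. Tlr2 works as a pair with Tlr1 or with Tlr6. In mice prone to atherosclerosis, loss of Tlr2, Tlr4 or Myd88 has been reported to reduce lesions, which is why these receptors are of interest in arterial macrophages.

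The genes lie on 7 chromosomes of the mm10 assembly, by the GENCODE M21 annotation. Tlr1 (chr5:64924679-64933563) and Tlr6 (chr5:64952031-64960097) are neighbours, 18467 bases apart on the minus strand. Tlr8 (chrX:167242696-167264329) and Tlr7 (chrX:167304929-167330558) are neighbours, 40599 bases apart, also on the minus strand. Tlr13 (chrX:106143204-106160493, plus strand) is the other X-linked receptor. Tlr2 (chr3:83836272-83841767) and Tlr3 (chr8:45395665-45411080) are on minus strands, and Tlr4 (chr4:66827584-66930284), Tlr5 (chr1:182954788-182976044) and Tlr9 (chr9:106222598-106226883) are on plus strands. Tlr1 and Tlr6 were the only pair of members whose transcripts shared stretches of 50 bases. They had 454 such stretches in common, 13.6% of those of Tlr1 and 12.3% of those of Tlr6. Counts of these 2 genes are therefore uncertain where reads could fit both. An antisense gene, Gm45542, overlaps Tlr3 and has no row in the table.

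Promoter sequence before the annotated start is shown for 4 members, from RefSeq on GRCm38.p6, with the bases that GENCODE gives as exon left out. Tlr1 and Tlr6 are shown because these neighbours had unlike levels across libraries, Tlr2 because it was the most abundant member, and Tlr13 because it was the endosomal member with the highest level. The capitals mark matches to the core site of the myeloid factor PU.1 (GAGGAAG) in Tlr1 and Tlr13, to an interferon-stimulated response element (GAAANNGAAA, here on the other strand) in Tlr6 and to a κB site in Tlr2. RefSeq lists 2 starts for Tlr1 and for Tlr6, and the start with a match is shown. The Tlr6 stretch (chr5:64959167-64959416, minus strand) lies within the GENCODE gene, in an intron, since its other start is farther upstream. The Tlr1 stretch is chr5:64933564-64933808, minus strand, the Tlr2 stretch is chr3:83841768-83841858, minus strand and the Tlr13 stretch is chrX:106143025-106143203, plus strand.
Tlr1: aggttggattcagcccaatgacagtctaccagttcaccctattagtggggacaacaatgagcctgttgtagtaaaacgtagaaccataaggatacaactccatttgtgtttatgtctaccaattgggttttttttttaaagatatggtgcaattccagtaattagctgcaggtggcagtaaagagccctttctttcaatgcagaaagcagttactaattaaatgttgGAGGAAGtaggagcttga
Tlr6: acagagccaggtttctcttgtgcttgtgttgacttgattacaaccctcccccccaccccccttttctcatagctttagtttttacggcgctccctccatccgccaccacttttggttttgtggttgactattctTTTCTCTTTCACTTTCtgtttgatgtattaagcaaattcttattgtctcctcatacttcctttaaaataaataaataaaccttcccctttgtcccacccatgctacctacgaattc
Tlr2: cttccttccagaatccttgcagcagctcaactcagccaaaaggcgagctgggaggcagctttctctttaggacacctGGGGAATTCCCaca
Tlr13: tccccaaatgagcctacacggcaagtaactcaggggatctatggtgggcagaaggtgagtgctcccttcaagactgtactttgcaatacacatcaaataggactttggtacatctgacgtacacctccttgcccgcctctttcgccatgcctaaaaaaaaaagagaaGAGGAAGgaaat

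The table of promoters held 8 of the 10 members, all but Tlr4 and Tlr7, with 10 starts in all. Over the 250 bases before each start, searched on both strands, the PU.1 core stood 23 bases before the start of Tlr1, 83 bases before that of Tlr13 and 112 bases before that of Tlr9, against 10.6% of all 32851 promoters holding it. The interferon element of Tlr6 was matched by overlapping copies that began 116 and 110 bases before the start, and 2.98% of promoters held one. A κB match began 173 bases before the start of Tlr2 and 211 bases before that of Tlr3, with 3.90% of promoters holding one, and Tlr9 also held an AP-1 match (TGANTCA) 58 bases before its start, which 6.75% of promoters held. The Tlr3 window (chr8:45410381-45410630) lies within the GENCODE gene. Its κB match is outside chr8:45410381-45410452, the longest stretch of the window that GENCODE does not give as exon. The windows of Tlr5 and Tlr8 held none of the 4 motifs. These are matches of letters and show no binding.

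Total counts ranged from 289166 in YFP replicate 6 to 27742113 in YFP replicate 1, and the second lowest was 9790946. Counts that fell on the 10 members ranged from 412 in YFP replicate 6 to 67056 in GFP replicate 4, so YFP replicate 6 rests on few reads for all but Tlr2. Levels are CPM, which are counts relative to the scaled size of a library. Intervals of single values cover counting error only. Ptprc, which encodes CD45, was between 439 and 1248 CPM in every library. The reporter genes went against the sort in 5 libraries. YFP replicate 6, sorted as negative for GFP and positive for YFP, had 104.5 CPM of Cx3cr1 (35 counts), above GFP replicate 1 at 80.8 CPM, and 89.6 CPM of Itgax (30 counts), below every GFP library (107 to 191 CPM). DP replicates 4 and 5, sorted as positive for both, had 9.43 and 0.427 CPM of Cx3cr1 and 38.6 and 47.8 CPM of Itgax. DN replicates 3 and 6, sorted as negative for both, had 142 and 134 CPM of Cx3cr1 and 332 and 297 CPM of Itgax. YFP replicate 1 had 175 CPM of Itgax, no more than GFP replicate 1 at 191 CPM, and 0.930 CPM of Cx3cr1. The comparisons are therefore given with and without the DP and DN libraries, and also without YFP replicate 6. The summed level of 8 macrophage markers was lowest in DN replicate 1, at 606 CPM, and between 3574 and 48480 CPM elsewhere.

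Tlr2 was the most abundant Toll-like receptor in all 18 libraries on the length-scaled level, which is CPM per kilobase of exon. It held between 59.0% and 90.8% of the summed level of the 10 members, with a median of 84.4%. The second place was taken by Tlr13 in 14 libraries, by Tlr7 in 3 (YFP replicates 1 and 5 and GFP replicate 5) and by Tlr6 in DP replicate 5. Median levels over the 18 libraries were 376 CPM per kilobase for Tlr2, 23.5 for Tlr13, 18.03 for Tlr7, 11.9 for Tlr1, 8.53 for Tlr4, 6.82 for Tlr8, 2.24 for Tlr6, 1.80 for Tlr3, 1.20 for Tlr5 and 0.888 for Tlr9. The DNA sensor Tlr9 and the flagellin sensor Tlr5 were thus at the bottom of the order, and the lipoprotein sensor Tlr2 stood alone at the top.

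**Figure D1:**
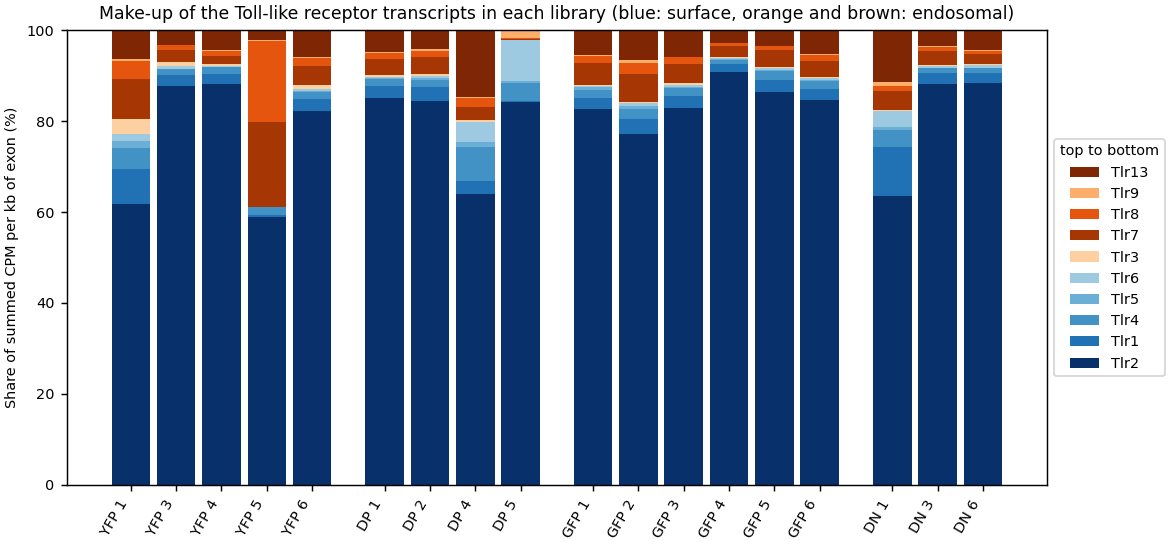
Stacked bars give each member's percent of the summed CPM per kilobase of exon of the 10 receptors, 1 bar per library, with cell-surface members in blue and endosomal members in orange and brown. The Tlr2 share runs from 59.0% to 90.8%, and the orange and brown part reaches 38.9% in YFP replicate 5 and 2.07% in DP replicate 5.

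Among the cell-surface receptors, Tlr2, which senses bacterial lipoproteins, was measured at 143, 2000, 1726, 207 and 946 CPM in the YFP libraries (replicates 1, 3, 4, 5 and 6), 1414, 985, 298 and 187 CPM in the DP libraries (replicates 1, 2, 4 and 5), between 772 and 3130 CPM with a median of 1396 in the GFP libraries, and 119.9, 3175 and 1570 CPM in the DN libraries (replicates 1, 3 and 6). The lowest GFP library, at 772 CPM, was above 2 YFP libraries, 2 DP libraries and 1 DN library, and DN held both the highest library of all 18 (replicate 3) and the lowest (replicate 1). The subset means were 1005 ± 850.5 in YFP, 721 ± 582 in DP, 1677 ± 881 in GFP and 1621 ± 1528 in DN (CPM, SD).

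Tlr1, the partner of Tlr2 for triacylated lipoproteins, had 20.2, 62.97, 49.1, 1.30 and 32.8 CPM in the YFP libraries, 49.2, 38.8, 14.8 and 0.213 CPM in the DP libraries, between 34.1 and 78.7 CPM with a median of 46.2 in the GFP libraries, and 23.1, 98.95 and 42.4 CPM in the DN libraries. Its lowest libraries were DP replicate 5, with 2 counts, and YFP replicate 5, with 13 counts, and all 4 subsets overlapped. Tlr6, the partner of Tlr2 for diacylated lipoproteins, had 4.16, 14.3, 8.38, 0.299 and 5.97 CPM in the YFP libraries, 6.49, 6.59, 24.9 and 24.8 CPM in the DP libraries, between 5.88 and 16.2 CPM with a median of 8.06 in the GFP libraries, and 8.32, 12.3 and 11.7 CPM in the DN libraries. Its highest libraries were DP replicates 4 and 5, both of which go against their label, and DP replicate 5 was at the same time the lowest of all for Tlr1. The length-scaled ratio of Tlr1 to Tlr6 was 5.07 to 7.80 in GFP libraries and 8.44 and 6.56 in DP replicates 1 and 2, against 0.662 in DP replicate 4, and in DP replicate 5 the counts were 2 of Tlr1 and 232 of Tlr6. In DN it was 3.09, 8.95 and 4.05.

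Tlr4, the lipopolysaccharide receptor, had 19.2, 53.9, 49.3, 11.3 and 32.8 CPM in the YFP libraries, 48.7, 34.5, 64.8 and 16.8 CPM in the DP libraries, between 42.9 and 92.2 CPM with a median of 55.1 in the GFP libraries, and 12.7, 67.3 and 32.95 CPM in the DN libraries. The libraries sat within a narrower span than those of the other members, with a coefficient of variation of 0.484 over the 18 libraries against 0.517 to 0.820 for the others. The length-scaled ratio of Tlr2 to Tlr4 ran from 8.46 in DP replicate 4 to 93.6 in GFP replicate 4. Tlr5, the flagellin receptor, had 5.85, 3.14, 0.882, 0.0997 and 5.97 CPM in the YFP libraries, 5.32, 5.61, 7.56 and 1.60 CPM in the DP libraries, between 5.17 and 11.2 CPM with a median of 9.18 in the GFP libraries, and 1.87, 6.52 and 3.08 CPM in the DN libraries. Only 1 count was behind the YFP replicate 5 value and 2 counts behind that of YFP replicate 6. The 6 GFP libraries reached down to 5.17 CPM, below the values of 2 YFP and 3 DP libraries, so these subsets overlapped.

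**Figure D2:**
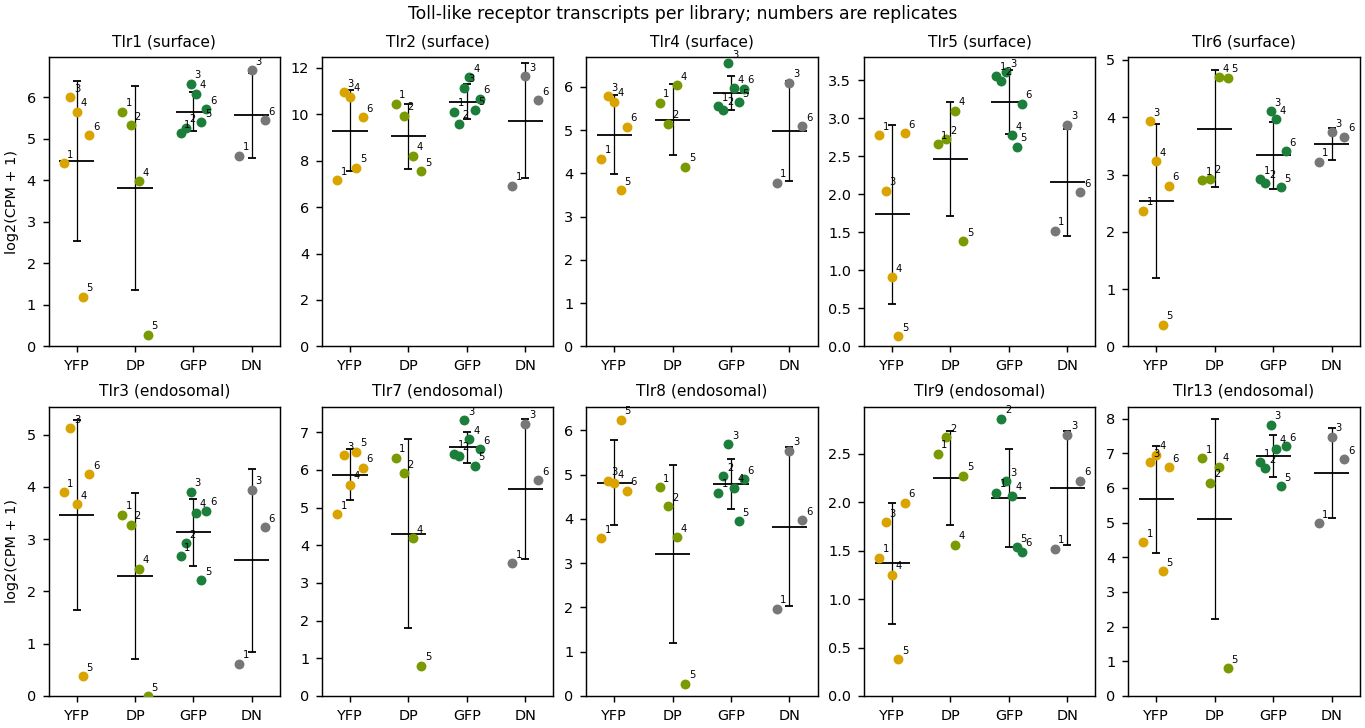
Each point is 1 library on a log2(CPM + 1) axis, with its replicate number, by subset from YFP to DN, and lines give the mean and SD of the subset. GFP libraries lie close together for most members, while DP replicate 5, YFP replicate 5 and DN replicate 1 lie far below the rest of their subsets for several members, as with Tlr7 at 0.747 CPM in DP replicate 5. Tlr8 goes the other way in YFP replicate 5, at 74.5 CPM, the highest of all for that gene.

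Among the endosomal receptors, Tlr13, which in mice senses bacterial ribosomal RNA, had 20.7, 106, 124, 11.2 and 95.5 CPM in the YFP libraries (replicates 1, 3, 4, 5 and 6), 114, 69.9, 97.03 and 0.747 CPM in the DP libraries (replicates 1, 2, 4 and 5), between 65.6 and 226 CPM with a median of 122 in the GFP libraries, and 30.5, 177 and 112 CPM in the DN libraries (replicates 1, 3 and 6). DP replicate 5 and YFP replicate 5 were the lowest, and the subset means were 71.3 ± 51.7 in YFP, 70.5 ± 49.96 in DP, 129 ± 55.9 in GFP and 107 ± 73.5 in DN (CPM, SD). Tlr7, a sensor of single-stranded RNA, had 27.4, 82.9, 47.8, 88.7 and 65.7 CPM in the YFP libraries, 79.02, 59.3, 17.2 and 0.747 CPM in the DP libraries, between 68.2 and 158 CPM with a median of 89.2 in the GFP libraries, and 10.5, 148 and 52.1 CPM in the DN libraries. Here YFP replicate 5 was the highest of its subset, and DP replicate 5 (7 counts) and DN replicate 1 were the lowest of all. The subset means of Tlr7 were 62.5 ± 25.3 in YFP, 39.1 ± 36.3 in DP, 99.7 ± 31.9 in GFP and 70.4 ± 70.7 in DN (CPM, SD).

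Tlr8, the X-linked neighbour of Tlr7 and also a sensor of RNA, had 10.8, 28.2, 26.9, 74.5 and 23.9 CPM in the YFP libraries, 25.2, 18.6, 11.01 and 0.213 CPM in the DP libraries, between 14.4 and 50.5 CPM with a median of 26.9 in the GFP libraries, and 2.91, 45.4 and 14.8 CPM in the DN libraries. YFP replicate 5 stood above every other library, at 74.5 CPM, and DP replicate 5 had 2 counts. The length-scaled ratio of Tlr7 to Tlr8 was 2.39 to 4.15 in GFP and 2.87 to 3.18 in DN, and it was below both ranges in YFP replicates 1, 4 and 5 (2.23, 1.56 and 1.04) and DP replicate 4 (1.38).

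Tlr3, the receptor of double-stranded RNA, had 13.9, 33.9, 11.7, 0.299 and 17.9 CPM in the YFP libraries, 10.1, 8.71, 4.40 and 0 CPM in the DP libraries, between 3.65 and 14 CPM with a median of 8.46 in the GFP libraries, and 0.532, 14.4 and 8.37 CPM in the DN libraries. DP replicate 5 had 0 counts, which allows up to 0.320 CPM, and YFP replicate 3 was the highest library of all 18. Tlr9, the receptor of unmethylated CpG DNA, had 1.69, 2.47, 1.39, 0.299 and 2.98 CPM in the YFP libraries, 4.66, 5.37, 1.95 and 3.84 CPM in the DP libraries, between 1.81 and 6.28 CPM with a median of 3.24 in the GFP libraries, and 1.87, 5.50 and 3.67 CPM in the DN libraries. It was under 7 CPM in every library, and all subsets overlapped. In the libraries with over 3 counts of both genes, the length-scaled ratio of Tlr3 to Tlr9 was 5.48 to 9.16 in 3 YFP libraries, 1.08 to 1.51 in 3 DP libraries, 0.697 to 3.93 in 6 GFP libraries and 0.190 to 1.75 in 3 DN libraries. The ratio was chosen after its values were seen, and it was not tested.

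The summed endosomal share of the length-scaled level was 18.1% ± 13.2 in YFP, 10.7% ± 7.44 in DP, 10.9% ± 3.46 in GFP and 11.1% ± 5.72 in DN (SD, n = 5, 4, 6 and 3). The YFP libraries gave 22.9%, 7.92%, 7.79%, 38.9% and 12.9%, and the DP libraries gave 10.2%, 10.1%, 20.3% and 2.07%. The GFP libraries gave 6.08% to 16.1% with a median of 11.3%, and the DN libraries gave 17.7%, 7.92% and 7.74%. The highest YFP values came from replicates 5 and 1, where Tlr2 was low, and the other 3 libraries of that subset lay within the span of the GFP libraries. With Tlr2 left out of the sum the endosomal share was 71.6% ± 13.7 in YFP, 50.7% ± 25.6 in DP, 67.7% ± 3.71 in GFP and 60.9% ± 10.7 in DN, and it ran from 13.1% in DP replicate 5 to 94.7% in YFP replicate 5. Its median over the 18 libraries was then 66.6%, against 10.4% with Tlr2 in the sum. In bulk RNA, fewer cells of a type and less RNA per cell cannot be told apart.

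The subsets were then compared in pairs to ask whether the receptors differ with the reporters. No member differed between any pair of subsets at an adjusted p under 0.05 (edgeR quasi-likelihood test, Benjamini-Hochberg over all genes tested). Of 60 tests of members, 0 were at an unadjusted p under 0.05. DESeq2 called 0 members, with 3 of its tests at an unadjusted p under 0.05, for Tlr6 and Tlr9 between YFP and DP and for Tlr5 between YFP and GFP. Of the 15606 genes that DESeq2 tested, 1339 and 1485 were at an unadjusted p under 0.05 in these 2 pairs. In the edgeR fit the share of all genes called was 0.198% between DP and GFP and 0% in the other 5 pairs, so 0 of 10 members lay near the background. At an unadjusted p under 0.05 the background of the edgeR fit was 6.73% between YFP and DP, 7.02% between YFP and GFP, 6.84% between DP and GFP, 2.69% between YFP and DN, 2.71% between DP and DN and 1.35% between GFP and DN. In each pair the values of every member overlapped between the subsets, where 0.793% (YFP and DP), 0.834% (YFP and GFP), 1.32% (DP and GFP), 0.951% (YFP and DN), 1.43% (DP and DN) and 1.48% (GFP and DN) of all genes did not overlap. A test of any difference among the 4 subsets called 57 genes and no member, with unadjusted p from 0.246 for Tlr5 to 0.591 for Tlr1. The order of the means, such as GFP, DN, YFP and DP from high to low for Tlr2, Tlr7 and Tlr13, therefore has no step beyond the spread of the libraries.

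Between YFP and GFP cells, 8 of the 10 members had a lower fitted level in YFP cells, Tlr3 and Tlr8 being the others, and the median log2 fold change was -0.71, against 0.04 over all genes, of which 51.7% were higher and 48.3% lower. The 5 cell-surface members were all on the lower side. Tlr5 had a log2 fold change of -1.57 ± 0.81 (SE, 95% interval -3.16 to 0.03, adjusted p of 0.746) and Tlr9 one of -1.06 ± 0.76 (SE, 95% interval -2.55 to 0.43, adjusted p of 0.929). Tlr5 was the only member that another tool called. With limma voom and sample weights its log2 fold change was -1.88 ± 0.47 (SE, adjusted p = 0.0272), where 2.69% of all genes were called. With the replicate number as a block, 8 of 10 members were lower in YFP cells, with a median of -1.065, against 0.07 over all genes. None was called, and 2 were at an unadjusted p under 0.05, where 926 of 17143 genes were. Tlr1, Tlr2, Tlr4, Tlr5, Tlr6 and Tlr13 were lower in the YFP library in all 5 same-numbered pairs. No member was higher in all 5. How many of all genes did so was not counted. Same-numbered libraries did not all deviate together (correlation -0.006 in replicate 6).

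Between DP and GFP cells, 8 of 10 members had a lower fitted level in DP cells, against 59.4% of all genes higher and 40.6% lower, with a median log2 fold change of -0.82 against 0.20 over all genes. Tlr7 had -1.35 ± 0.77 (SE, 95% interval -2.86 to 0.16, adjusted p of 0.910) and Tlr2 had -1.22 ± 0.77 (SE, 95% interval -2.73 to 0.30, adjusted p of 0.974). Tlr6 and Tlr9 were on the other side, at 0.67 and 0.24. The interval of each includes 0. Without DP replicate 5, 7 members were lower and the median was -0.27, against 0.26 over all genes. The summed level of 10 neutrophil markers, all with counts in both libraries, was 37670 CPM in DP replicate 5 and 2813 CPM in DP replicate 4, against 32.7 to 325 CPM in GFP libraries. Retnlg alone gave 21410 and 1315 CPM of these sums. Not all markers were raised. Elane and Mpo in DP replicate 5 (0.427 and 1.39 CPM) were within the GFP range. So were Camp, Ltf, Ngp and Cxcr2 in DP replicate 4 (0.665, 3.57, 2.95 and 5.36 CPM). The part of these markers in the differences was not tested.

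Between YFP and DP cells, 6 members had a higher and 4 a lower fitted level in YFP cells, against 45.6% of all genes higher and 54.4% lower, and the median log2 fold change was 0.19. Tlr6 had -1.23 ± 0.78 (SE, 95% interval -2.76 to 0.30, adjusted p of 0.925) and Tlr9 had -1.30 ± 0.82 (SE, 95% interval -2.91 to 0.31, adjusted p of 0.925). Of the endosomal members, Tlr3, Tlr7, Tlr8 and Tlr13 were on the higher side, by 1.41, 0.68, 1.27 and 0.01. Without DP replicate 5 the members' median was -0.44 and 3 were higher, and without YFP replicate 3 or YFP replicate 4 it was -0.29 and -0.26, also with 3 higher. Over all genes the medians in these settings were -0.19, -0.19 and -0.16.

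Against DN cells the members stood on no common side. In YFP cells 8 of 10 were lower, with a median of -0.50. Of all genes 52.4% were higher and 47.6% lower. There the cell-surface and endosomal members with the smallest p were Tlr2, -0.69 ± 0.83 (SE, 95% interval -2.31 to 0.93, adjusted p of 1), and Tlr9, -1.19 ± 0.87 (SE, 95% interval -2.90 to 0.52, adjusted p of 1). In DP cells 6 of 10 were lower, with a median of -0.51. Of all genes 58.9% were higher and 41.1% lower. There Tlr2 stood at -1.17 ± 0.87 (SE, 95% interval -2.88 to 0.54, adjusted p of 1) and Tlr7 at -0.85 ± 0.86 (SE, 95% interval -2.54 to 0.84, adjusted p of 1). In GFP cells 7 of 10 were higher, with a median of 0.20. Of all genes 54.2% were higher and 45.8% lower. There Tlr5 stood at 1.16 ± 0.92 (SE, 95% interval -0.64 to 2.97, adjusted p of 1) and Tlr7 at 0.50 ± 0.82 (SE, 95% interval -1.11 to 2.11, adjusted p of 1). The replicate number was also used as a block, since same-numbered GFP and DN libraries deviated together. With it, 9 of 10 members were higher in GFP cells, with a median of 1.06, against -0.007 over all genes. None was called, and 1 was at an unadjusted p under 0.05, where 217 of 17143 genes were. In all 3 pairs of same-numbered libraries Tlr4, Tlr5, Tlr7, Tlr8 and Tlr13 were higher in the GFP library, and no member was lower in all 3. How many of all genes did so was not counted. These 3 comparisons share the DN libraries.

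**Figure D3:**
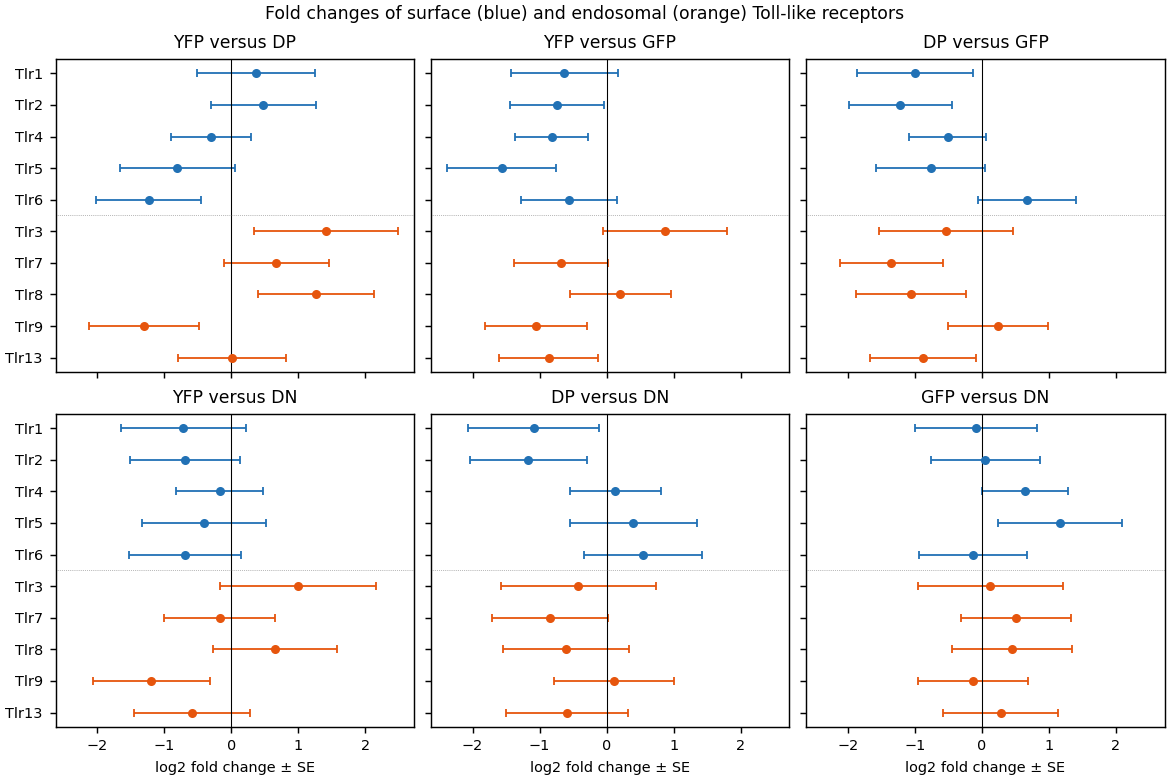
Points are log2 fold changes with SE for each member in the 6 pairs of subsets, the first-named subset over the second, with cell-surface members in blue above endosomal members in orange. Every member has an adjusted p above 0.05, and in the YFP versus GFP panel all 5 blue points lie below 0, from -1.57 to -0.56.

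The counts and medians against DN turned with single libraries. Without DN replicate 1, 2 of 10 members were higher in GFP cells than in DN cells (median -0.25), 2 in DP cells (-1.06) and 2 in YFP cells (-0.84). Over all genes the medians were 0.09, 0.52 and 0.44. Without DN replicate 3, 9 of 10 members were higher in GFP cells (median 1.03), 9 in DP cells (0.76) and 6 in YFP cells (0.30). Over all genes the medians were -0.23, 0.30 and 0.03. Without GFP replicate 3, 5 of 10 members were higher in GFP cells than in DN cells (median -0.04, against -0.07 over all genes). Without DP replicate 5, 5 of 10 members were higher in DP cells than in DN cells (median 0.10, against 0.12 over all genes). Of the 3, replicate 1 had 120 CPM of Tlr2 and 10.5 CPM of Tlr7, and replicates 3 and 6, with Cx3cr1 and Itgax against their label, had 3175 and 1570 CPM of Tlr2 and 148 and 52.1 CPM of Tlr7. DN replicate 1 also had 1165 CPM of 5 B cell markers, against 10.6 and 12.6 CPM in replicates 3 and 6 and 6.54 to 29.9 CPM in GFP libraries. Its 7 T and NK cell markers summed to 804 CPM, against 290 and 148 CPM in replicates 3 and 6 and 140 to 276 CPM in GFP libraries. Of these 7, Il7r (218.5 CPM) was within the GFP range (68.0 to 269 CPM). The part of these markers in the result was not tested. DP replicates 4 and 5 and DN replicates 3 and 6 were also left out, which leaves 1 DN library that was assumed to vary like the others. Then 9 of 10 members were higher in GFP cells than in DN cells, with a median log2 fold change of 1.68. The numbers were 9 of 10 in DP cells, with a median of 1.38, and 8 of 10 in YFP cells, with a median of 0.80. Over all genes the medians were -0.71 in GFP, -0.23 in DP and -0.38 in YFP. No member passed the threshold there either, nor in the pairs without DN, where the medians were -0.65 between YFP and GFP, -0.20 between DP and GFP and -0.53 between YFP and DP. Over all genes the medians in these pairs were 0.16, 0.34 and -0.19. YFP replicate 6 was then left out as well, a setting chosen after the data were seen. The medians over all genes against DN were -0.24 in GFP, 0.05 in DP and -0.24 in YFP. Those between YFP and GFP, DP and GFP, and YFP and DP were -0.10, 0.14 and -0.24. The members' medians against DN were 2.22 in GFP (10 of 10 higher), 1.66 in DP (9 of 10) and 1.27 in YFP (8 of 10). In the pairs without DN they were -0.70 between YFP and GFP, -0.50 between DP and GFP and -0.26 between YFP and DP, and 0 members were called.

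Within the libraries numbered 1 and 2 the libraries of a subset lay closer together. These are YFP replicate 1, DP replicates 1 and 2, GFP replicates 1 and 2 and DN replicate 1, so YFP and DN had 1 library each, which was assumed to vary like DP and GFP. GFP cells then had 7 members called higher than DN, where 12.5% of all genes were called, among them Tlr2 (log2 fold change 2.76 ± 0.49, adjusted p = 5.32e-05), Tlr7 (2.78 ± 0.48, adjusted p = 3.50e-05) and Tlr8 (2.97 ± 0.45, adjusted p = 3.78e-06). DP cells had 6 called higher than DN, where 14.1% of all genes were called. YFP cells had Tlr3 and Tlr8 higher than DN, where 9.84% were called. Against GFP cells, YFP cells had Tlr2, Tlr7 and Tlr13 lower and Tlr3 higher (1.39 ± 0.45, adjusted p = 0.0491), where 7.83% were called, and against DP cells they had Tlr2 and Tlr13 lower, where 8.15% were called. Between DP and GFP 0 members were called. The YFP and DN comparison is 1 library against 1 library, and the others with YFP or DN set 1 library against 2. YFP replicate 1 also differed in markers of other cell types. It had 10440 CPM of 7 fibroblast markers, against 3845 and 1195 CPM in DP replicates 1 and 2, 402 and 432 CPM in GFP replicates 1 and 2 and 2080 CPM in DN replicate 1. It had 445 CPM of 5 B cell markers, against 15.5 to 23.9 CPM in these DP and GFP libraries and 1165 CPM in DN replicate 1. The 8 macrophage markers of YFP replicate 1 summed to 3574 CPM, against 9660 to 11660 CPM in DP and GFP and 606 CPM in DN. Its 7 markers of type 1 dendritic cells summed to 511 CPM, against 204 to 320.5 CPM in DP and GFP and 106 CPM in DN. Not all markers followed the sums. Mertk (70.5 CPM), Cadm1 (60.5 CPM) and Batf3 (9.89 CPM) in YFP replicate 1 were within the range of these DP and GFP libraries. No gene of these lists was at 0 in YFP replicate 1, and the part of these markers in the calls was not tested. In the libraries numbered 3 to 6, 0 members were called in any pair, with 2 of the 10 at an unadjusted p under 0.05 in each pair with DP and 0 in the others. Of the 14129 genes tested there, 1655 were at an unadjusted p under 0.05 between YFP and DP. The number was 2377 between DP and GFP and 1269 between DP and DN.

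The effect of the Cd11c reporter in cells with the Cx3cr1 reporter was compared with its effect in cells without it. No member was called, where 0% of all genes were called and 3.30% were at an unadjusted p under 0.05. Of the members 2 were higher and 8 lower, against 52.7% of all genes higher and 47.3% lower. That count turned with single libraries. It was 7 higher and 3 lower without DP replicate 5 and without DN replicate 1 (medians 0.11 and 0.05), 6 and 4 without YFP replicate 3 and without YFP replicate 4 (0.16 and 0.07), and 5 and 5 without GFP replicate 3 (0.01). Over all genes the medians in these settings were 0.30, -0.23, 0.33, 0.30 and 0.35. Within the libraries numbered 1 and 2, 3 members were called (Tlr3, Tlr5 and Tlr8), where 3.7% of all genes were called. Tlr6 had a difference of log2 fold changes of 1.36 ± 1.11 (SE, 95% interval -0.82 to 3.54, adjusted p of 1) and Tlr8 one of -1.71 ± 1.25 (SE, 95% interval -4.15 to 0.73, adjusted p of 1).

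Some members moved together across the 18 libraries, and these correlations are given as descriptions, with no test, since libraries of a subset or of a replicate number are not independent. Over log2(CPM + 1), the neighbours Tlr7 and Tlr8 had the highest Pearson correlation of the 45 pairs (r = 0.94, Spearman rho = 0.83), which was 0.78 without the 2 libraries farthest from the median of Tlr7, 0.99 in the libraries numbered 1 and 2 and 0.94 in those numbered 3 to 6. Tlr1 and Tlr13 came next (r = 0.92, rho = 0.88), with r = 0.72 without the 2 libraries farthest from the median of Tlr1. By rank, Tlr1 and its partner Tlr2 were the most alike pair (rho = 0.94, r = 0.76). Their r was 0.89 without the 2 libraries farthest from the median of Tlr1, and 0.94 in the libraries numbered 1 and 2 and in those numbered 3 to 6. The neighbours Tlr1 and Tlr6 had a low correlation (r = 0.22, rho = 0.32), and Tlr6 and Tlr8 had a negative one (r = -0.43, rho = -0.07). Pairs of endosomal members had a median r of 0.59 (10 pairs), pairs of cell-surface members 0.55 (10 pairs) and mixed pairs 0.52 (25 pairs).

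**Figure D4:**
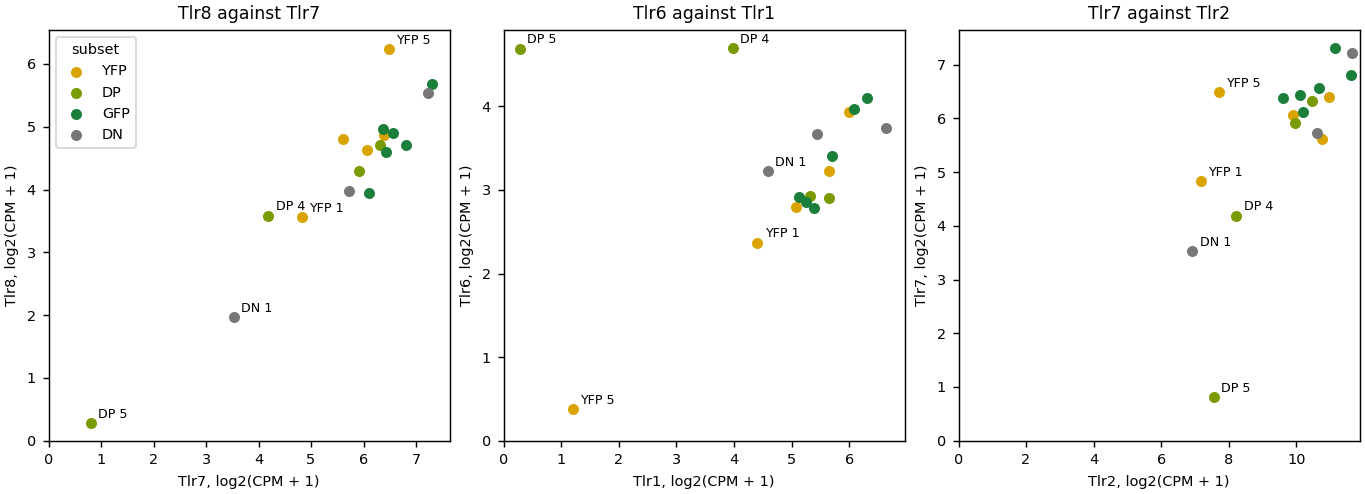
Each point is 1 library on log2(CPM + 1) axes, coloured by subset, for Tlr8 against Tlr7, Tlr6 against Tlr1 and Tlr7 against Tlr2. Tlr7 and Tlr8 rise together (r = 0.94), with DP replicate 5 the lowest for both. YFP replicate 5 is the highest for Tlr8 but not for Tlr7, at 88.7 CPM against 158 CPM in GFP replicate 3. DP replicates 4 and 5 stand apart at the top of the Tlr6 plot.

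For each member the 3 genes with the most alike level were taken from 6450 genes with a mean of at least 20 CPM. Tlr2 was most like Plk2, a stress-induced kinase (r = 0.97, rho = 0.98), Rnf19b (r = 0.96) and Gas2l3 (r = 0.95). Tlr1 was most like Zswim4 (r = 0.98), Tlr13 like Siae (r = 0.97), Tlr7 like Trpv4, a cation channel (r = 0.97), and Tlr8 like Ext1, an enzyme of heparan sulfate synthesis (r = 0.96). Tlr6 was most like Ccpg1 (r = 0.94), Ankrd13a (r = 0.94) and Irak3 (r = 0.93), and Irak3 encodes an inhibitor of receptor signalling, but within the libraries numbered 1 and 2 these values were 0.23, 0.03 and 0.46. Tlr3 was most like Slc7a2, an arginine transporter (r = 0.93), Tlr4 like Vps35, a subunit of retromer (r = 0.90), Tlr5 like Eef2k (r = 0.89) and Tlr9 like P2rx7, an ATP-gated channel (r = 0.83).

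DP replicate 5 and YFP replicate 5 held most of the low extremes. DP replicate 5 was the lowest of all 18 libraries for Tlr1, Tlr3, Tlr7, Tlr8 and Tlr13, and YFP replicate 5 was the lowest for Tlr4, Tlr5, Tlr6 and Tlr9. DP replicate 5 also had 35460 CPM of macrophage markers and 4024 CPM of 5 mast cell and basophil markers, the latter against 8.73 to 79.6 CPM in GFP libraries. Its smooth muscle markers summed to 4305 CPM, against 70.8 to 328 CPM in GFP libraries. Its T and NK cell markers summed to 4.69 CPM, against 140 to 276 CPM. Not all markers followed these sums. Kit (3.52 CPM), Mcpt8 (0), Myh11 (68.9 CPM), Cd8a (1.17 CPM) and Ncr1 (0) were within the GFP range. YFP replicate 5 had 48480 CPM of macrophage markers and 105900 CPM of 8 markers of foamy macrophages, both the highest of all 18 libraries, beside 11.3 CPM of Tlr4 and 74.5 CPM of Tlr8. The macrophage markers did not all go 1 way. C1qb alone gave 22080 CPM in YFP replicate 5 and 14380 CPM in DP replicate 5. Csf1r was 1339 and 1067 CPM there, below every GFP library (2326 to 5148 CPM). Mertk was 230 CPM in YFP replicate 5 and 38.1 CPM in DP replicate 5, above and below the GFP range (43.9 to 108 CPM). GFP replicate 3 was the highest library for 4 members, Tlr4, Tlr5, Tlr7 and Tlr13. The part of these cell types in the receptor levels was not tested.

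The genes that work with the receptors were also followed, in 8 lists of 74 genes. Of 444 tests over the 6 pairs, 0 were called, and 4.73% were at an unadjusted p under 0.05, against 4.56% of the tests of all genes. The pairs of subsets whose counts are given for a list were chosen after their values were seen. Of all genes, 45.6% were higher between YFP and DP, 51.7% between YFP and GFP, 59.4% between DP and GFP, 52.4% between YFP and DN, 58.9% between DP and DN and 54.2% between GFP and DN. The smallest adjusted p was that of Lbp, the lipopolysaccharide-binding protein that feeds Tlr4, between DP and GFP, with a log2 fold change of 3.07 with an SE of 0.79 (adjusted p of 0.0901) and means of 36.2 ± 40.9 in YFP, 52.8 ± 32.5 in DP, 6.29 ± 2.47 in GFP and 37.6 ± 15.7 in DN (CPM, SD). Lbp was named for its adjusted p. All 7 fibroblast markers had counts in these libraries, with a summed level of 1195 to 11400 CPM in DP and 230 to 1025 CPM in GFP. Not all were raised in every DP library. In DP replicate 5, Dcn alone gave 4439 CPM. Col1a1 and Col3a1 there (38.3 and 61.8 CPM) were within the GFP range, and Pdgfra (0.427 CPM) was below it. In DP replicate 2, Lum and Pdgfra (100.8 and 16.7 CPM) were within the GFP range. The part of these markers in the Lbp difference was not tested.

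Of the 6 surface co-receptor genes, 5 were higher in YFP cells than in GFP cells (median log2 fold change 0.72), and none was called. Cd14, which hands lipopolysaccharide to Tlr4, had means of 5110 ± 2888 in YFP, 3481 ± 1324 in DP, 6191 ± 2711 in GFP and 4286 ± 3228 in DN, and Cd36, a scavenger receptor and partner of the Tlr2 and Tlr6 pair, had 729 ± 465 in YFP, 346 ± 334 in DP, 319.6 ± 136 in GFP and 176 ± 139 in DN (CPM, SD). The Cd36 difference between YFP and DN was 2.06 with an SE of 0.79 (adjusted p of 1). Of the 12 genes of endosomal trafficking and processing, 10 were higher in GFP than in DN cells (median 0.22) and 9 in YFP than in DP cells (median 0.28). The cathepsin genes Ctsb and Ctss, whose proteases act in endosomes, had means of 19680 ± 13250 in YFP, 8495 ± 2431 in DP, 13450 ± 5384 in GFP and 11240 ± 10850 in DN, and of 8104 ± 8541 in YFP, 2353 ± 1226 in DP, 3604 ± 2071 in GFP and 3201 ± 3332 in DN (CPM, SD). Another cathepsin gene, Ctsl, chosen after its values were seen, had a log2 fold change of 2.32 with an SE of 0.68 (adjusted p of 0.308) between YFP and GFP.

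The 6 adaptors were all lower in YFP than in GFP cells, with a median of -0.57, and none was called. Myd88, the adaptor of most of the receptors, had means of 118 ± 22.5 in YFP, 123 ± 35.7 in DP, 133 ± 31.3 in GFP and 107 ± 52.3 in DN, and Pik3ap1, an adaptor that links receptors to PI3 kinase, had 263 ± 199 in YFP, 309 ± 145 in DP, 395 ± 168 in GFP and 356 ± 248 in DN (CPM, SD). Of the 14 kinases and ligases, 13 were lower in DP than in DN cells (median -0.32), with Irak2 at 210.3 ± 122 in YFP, 235 ± 65.3 in DP, 273 ± 109.7 in GFP and 277 ± 145 in DN and Irak1 at 173 ± 30.3 in YFP, 121 ± 60.5 in DP, 156 ± 18.03 in GFP and 151 ± 37.96 in DN (CPM, SD). Single libraries had 56.3 to 173 CPM of Myd88.

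The 9 transcription factors were all higher in GFP than in DN cells, by a median of 0.13, and 7 were lower in YFP than in GFP cells (median -0.59). Irf5, which acts downstream of Myd88 in macrophages, had means of 523 ± 205 in YFP, 374 ± 129 in DP, 521 ± 103 in GFP and 436 ± 284 in DN, and Irf1 had 372 ± 116 in YFP, 312 ± 208 in DP, 448 ± 85.7 in GFP and 377 ± 93.6 in DN (CPM, SD). Irf7, chosen after its values were seen, had 92.4 ± 18.5 in YFP, 85.8 ± 20.4 in DP, 165 ± 24.01 in GFP and 107 ± 17.1 in DN (CPM, SD), with log2 fold changes of -0.83 with an SE of 0.38 (adjusted p of 0.676) between YFP and GFP and -0.95 with an SE of 0.41 (adjusted p of 0.609) between DP and GFP. Of the 9 negative regulators, 7 were lower in YFP than in DN cells (median -0.57), and their most abundant genes were Nfkbia, at 3209 ± 1740 in YFP, 3150 ± 2016 in DP, 3258 ± 929 in GFP and 2509 ± 1083 in DN, and Tnfaip3, at 1502 ± 1065 in YFP, 1523 ± 978 in DP, 2186 ± 1074 in GFP and 2704 ± 1748 in DN (CPM, SD).

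Of the 11 NF-κB target genes, 8 were lower in DP than in GFP cells, with a median of -0.77. The chemokine genes Cxcl2 and Ccl4 led the list, with means of 3083 ± 1434 in YFP, 3332 ± 2808 in DP, 3350 ± 892 in GFP and 2394 ± 1530 in DN, and of 2397 ± 1621 in YFP, 1874 ± 999 in DP, 3212 ± 1258 in GFP and 2152 ± 1856 in DN (CPM, SD). Il6, chosen after its values were seen, had 125 ± 121 in YFP, 112 ± 189 in DP, 13.97 ± 10.2 in GFP and 23.98 ± 17.1 in DN (CPM, SD), with log2 fold changes of 3.17 with an SE of 0.86 (adjusted p of 0.249) between YFP and GFP and 3.002 with an SE of 0.88 (adjusted p of 0.166) between DP and GFP. The 7 interferon-related targets were all higher in YFP than in DP cells, with a median of 0.37, and 6 were lower in DP than in GFP cells (median -0.68). Cxcl10 had 342 ± 242 in YFP, 305 ± 173 in DP, 443 ± 174 in GFP and 374 ± 403 in DN, and Ifit1 had 177 ± 214 in YFP, 98.6 ± 85.7 in DP, 158 ± 143 in GFP and 197 ± 269 in DN (CPM, SD). None of these genes passed the threshold in any pair.

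**Figure D5:**
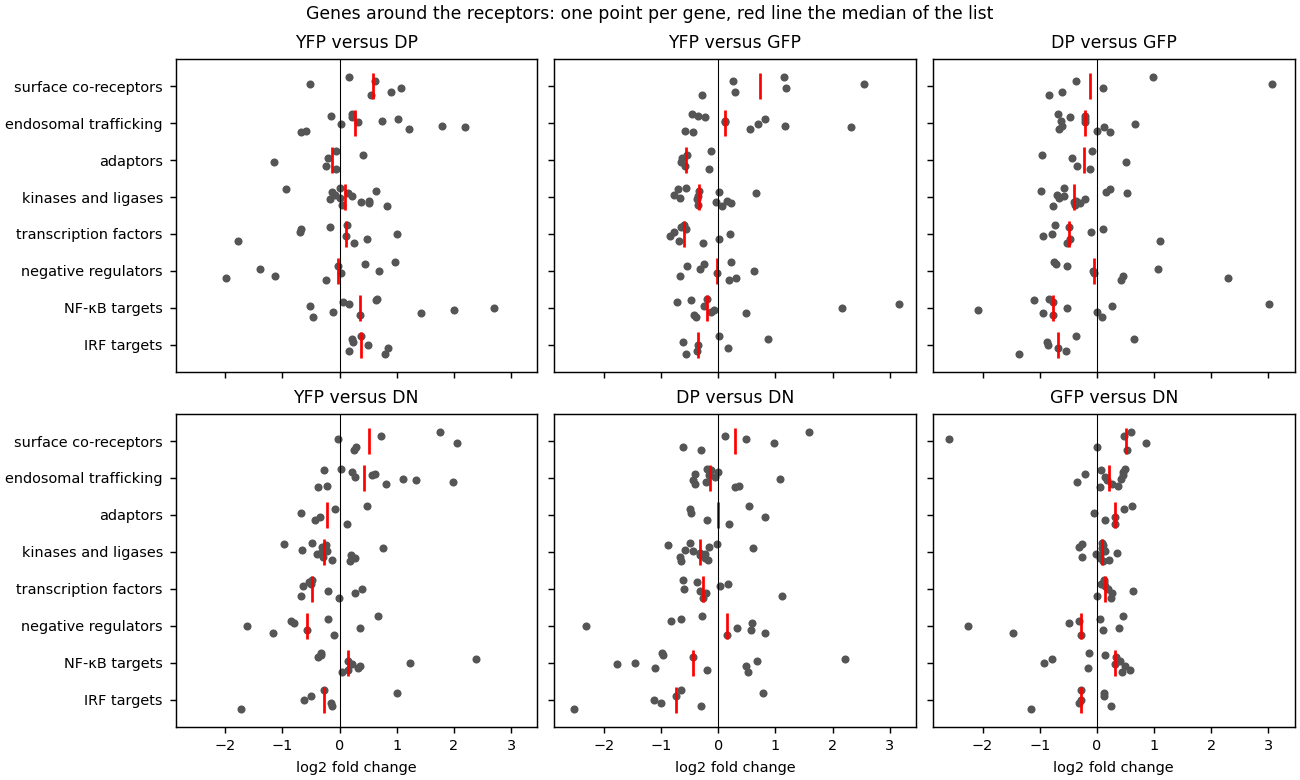
Each point is 1 gene of a list, placed by its log2 fold change in the pair of subsets named above the panel, and the red line is the median of the list. Medians lie between -0.77 and 0.72, and 0 of the 444 tests were called.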

How the data were processed

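Live CD45+ cells were sorted by GFP and YFP. The RNA was amplified with SMART-seq v4 (11 cycles) and made into libraries with Nextera XT, per the labels' protocols. TopHat 1.4.1, SAMtools and HTSeq 0.7.1 with mm10 were used, per the submitters' processing notes. Which annotation and strand setting were used is not given in the sources used here, and reads of antisense partners cannot be told apart. The authors deposited unnormalized counts of reads per gene in 1 table, whose columns were matched to samples by name. Reads carry no molecular identifiers, so intervals and the floor of 3 counts cover counting error only. Within a subset every pair of libraries differed beyond sampling noise (lowest chi-square over its degrees of freedom 16.7).

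The tests used edgeR 4.0.16 on R 4.3.3 (filterByExpr by subset, TMM scaling, robust quasi-likelihood fit with 1 mean per subset over all 18 libraries, common dispersion 0.890), with Benjamini-Hochberg adjustment over 17143 genes and a threshold of 0.05. SE and 95% intervals follow from the F statistic. CPM are relative to TMM-scaled library sizes, errors of CPM are SD, and length-scaled levels divide by the merged exon length of GENCODE M21. DESeq2 1.42.0, limma voom (limma 3.58.1), RLE scaling, no filter, a replicate block, fits of single pairs, each library left out, the 4 libraries against their labels left out, YFP replicate 6 left out with them (chosen after the data were seen) and sets of replicate numbers were alternatives. The scripts were tested on simulated data.

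The members, lists and tests were chosen with earlier results of these data known. Fold changes are printed in each comparison for the cell-surface and the endosomal member with the smallest p, and for pathway genes the 2 with the highest mean CPM in each list are named. Pairing by replicate number was checked on deviations from the subset means. All 3 pairs were above 0.1 for GFP and DN (0.66, 0.53 and 0.63), from the data and not from the labels, and not all were in the other comparisons. Promoters are from RefSeq on GRCm38.p6.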

Additional observations from a re-analysis of the deposited data

Results flagged for a closer look

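Tlr8 in YFP replicate 5 was far above the other YFP libraries, at 74.5 CPM against 10.8 to 28.2 CPM, a gap of 0.727 of the range of the subset, above Dixon's critical value of 0.710. The value rests on 747 counts. It was the only such value among 33 groups of members and subsets examined, where chance flags about 1 in 20. In the same library Tlr7 was 88.6 CPM, Tlr13 11.2 CPM and Tlr2 207 CPM, and the summed level of foamy macrophage markers was 105900 CPM, whose part in the Tlr8 value was not tested.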

How the results depend on the processing

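With each library left out in turn, 0 members were called in every comparison (0 to 0), and RLE scaling, no filter, DESeq2, single-pair fits and the fit with the replicate block (paired by number) also called 0, as did the setting without YFP replicate 6 and the 4 libraries, which was chosen after the data were seen. Limma voom called 1, between YFP and GFP. Within numbers 1 and 2 alone, the counts were 2 for YFP versus DP, 4 for YFP versus GFP, 2 for YFP versus DN, 6 for DP versus DN, 7 for GFP versus DN and 3 for the interaction, and the cause was not tested. In that setting YFP and DN have 1 library each.

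Of the printed log2 fold changes, Tlr6 between YFP and DP was 0.35 with voom, and its interaction value was -0.43 with voom. Tlr2 between DP and GFP was 0.42 in numbers 1 and 2. Tlr2 between YFP and DN was 0.34 without DN replicate 3, 2.53 without the 4 libraries against their labels and 0.22 in numbers 1 and 2. Tlr2 between DP and DN was 0.54 with the replicate block, 0.15 without DN replicate 3, 3.05 without the 4 libraries and 3.19 in numbers 1 and 2. Tlr7 between DP and DN was 0.58, 2.44 and 2.57 without DN replicate 3, without the 4 libraries and in numbers 1 and 2, and Tlr7 between GFP and DN was -0.032 without DN replicate 1. With YFP replicate 6 left out besides the 4 libraries, Tlr6 was 0.069 between YFP and DP and -0.33 in the interaction, Tlr2 was 3.11 between YFP and DN and 3.33 between DP and DN, and Tlr7 was 2.72 between DP and DN. The other alternatives kept the direction of these 14 fold changes.

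With a library left out, the endosomal share ran from 12.9% to 20.7% in YFP, 7.46% to 13.5% in DP, 9.83% to 11.8% in GFP and 7.83% to 12.8% in DN. Without Tlr2 and Tlr13 it was 60.6%, 35.9%, 53.4% and 41.9% in YFP, DP, GFP and DN, since Tlr2 holds most of the sum. In DN it was 17.7% without the 4 libraries, without the 5 and in numbers 1 and 2, where DN is replicate 1 alone.

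Left-out libraries moved the printed fold changes from -2.15 to -0.92 for Tlr6 and -1.77 to -1.12 for Tlr9 (YFP versus DP), -2.21 to -1.11 for Tlr5 and -1.22 to -0.76 for Tlr9 (YFP versus GFP), and -1.78 to -0.63 for Tlr2 and -1.95 to -0.71 for Tlr7 (DP versus GFP). Against DN they ran from -1.26 to 0.34 for Tlr2 and -1.55 to -0.79 for Tlr9 in YFP, -1.76 to 0.15 for Tlr2 and -1.45 to 0.58 for Tlr7 in DP, and 0.80 to 1.69 for Tlr5 and -0.032 to 1.69 for Tlr7 in GFP. The interaction ran from 1.05 to 2.42 for Tlr6 and -3.05 to -0.90 for Tlr8. Depth limits YFP replicate 6, where the 10 members have 412 counts.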

Other observations

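The other mouse Toll-like receptor genes, Tlr11 and Tlr12, were low. Tlr11 had 15.2 and 6.99 CPM in YFP replicates 1 and 3 and at most 1.32 CPM in every library of DP, GFP and DN. The same 2 libraries had 22.9 and 14.7 CPM of Clec9a, a marker of type 1 dendritic cells, which was at most 2.36 CPM elsewhere. All 7 markers of these cells summed to 511 and 623 CPM there, 158 to 832 CPM in the other YFP libraries, 84.1 to 320.5 CPM in DP, 192 to 233 CPM in GFP and 106 to 283 CPM in DN, and their part in the Tlr11 levels was not tested. Tlr11 was at an unadjusted p of 0.0334 between YFP and DP and 0.0176 between YFP and GFP, and Tlr12 averaged 2.91 ± 3.12 in YFP, 2.43 ± 2.18 in DP, 2.003 ± 0.837 in GFP and 3.22 ± 1.72 CPM in DN (SD). Neither was called in any pair of subsets.

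Tlr7, Tlr8 and Tlr13 are X-linked, and the Y-linked genes Ddx3y and Eif2s3y were low together in GFP replicate 6 and DN replicate 6. Ddx3y was 0.150 CPM in GFP replicate 6 and 0.367 CPM in DN replicate 6, Eif2s3y was 0 in both, and Ddx3y was 29.1 to 97.2 CPM in the other GFP libraries and 87.4 and 126 CPM in the other DN libraries. These genes did not go together in DP replicate 5 (28.6 CPM of Ddx3y and 0 of Eif2s3y) and YFP replicate 5 (15.4 and 0.897 CPM), and YFP replicate 6 had 2.98 CPM of each, which is 1 count. Tlr7 was 93.0 and 52.1 CPM in GFP replicate 6 and DN replicate 6, and between 68.2 and 158 CPM in the other GFP libraries. Xist was above 0 in all 18 libraries, from 1.30 to 39.4 CPM. The labels give both sexes for the series and none for a library.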
